A study of Danio rerio with 8 samples.

Results

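The endogenous myc genes of zebrafish liver are 3 transcript rows, mycb (NM_200172), mych (NM_001126109) and myca (NM_131412), picked by matching the RefSeq accession of each row to a gene symbol, out of 15600 rows listed in at least 1 of 8 libraries. They are the fish's own genes and not the introduced Myc transgene. Of the 3 genes, 2 (mycb and mych) reached at least 5 CPM (the deposited unit, tags relative to the library total) in at least 2 libraries and could be tested. The remaining gene, myca, gave 1 tag in all and is reported by its counting limit.

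MYC is a transcription factor of the basic helix-loop-helix leucine zipper class that binds DNA together with its partner MAX and raises the transcription of genes for ribosome assembly, energy metabolism and the cell cycle. Its mRNA and its protein are short-lived, and in mammals the gene is expressed at a low level in resting adult liver and rises early in regeneration and in many liver tumours. Zebrafish have myca and mycb as counterparts of mammalian MYC, and mych as a further member of the family found in fish.

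The libraries were made from liver total RNA with a 3' RNA-SAGE assay (sequencing of short tags taken close to the 3' ends of mRNAs) on the SOLiD platform, with 2 libraries in each of 4 groups. M+D+ fish carried Tg(fabp10:TA; TRE:Myc; krt4:GFP) and received doxycycline, and the submitters call these the tumour samples. M+D- fish carried the same transgenes without the drug, M-D+ fish were wildtype siblings given doxycycline, and M-D- fish were wildtype siblings left untreated. In the transgenic line the liver promoter fabp10 drives a doxycycline-dependent transactivator, that protein acts on a TRE promoter placed before Myc, and krt4 drives a green fluorescent reporter. Treatment began at 21 days after fertilization in 6-L tanks holding about 25 adult fish, and the age at collection is not stated in the labels. The species of the Myc sequence, and whether any of its tags could count toward a zebrafish myc row, cannot be read from the labels. No label states that the libraries of 1 group are separate fish or separate pools, and the p-values cover the spread of these libraries alone, which could be technical.

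Library totals ran from 1682372 tags (M-D+ library 1) to 6399932 tags (M+D+ library 1), and the limit set by a count of 0 (3 tags) was 0.469 to 1.78 CPM by library. Summed markers of hepatocytes, 7 of 10 listed, took 93576 to 235004 CPM in every library. The gene fabp10a gave most of this sum (79291 to 210286 CPM), so the sum says little about the remaining markers. In M+D+ relative to the averaged controls, the change of log2(CPM + 1) was 0.05 for fabp10a. The remaining markers changed by -1.15 to -0.50, beside -0.57 for the median row. Of these markers fgg alone passed 0.05 (limma adjusted p = 0.0311). Since CPM is a share of the library total, other transcripts can move it, and TMM scaling factors stood at 0.696 and 0.857 in the M+D+ libraries and 1.75 and 1.43 in the M-D+ libraries, against 0.814 to 0.958 in the rest. Values of mycb and mych after TMM scaling are therefore given beside the values as deposited. Levels of markers and other genes are given as deposited alone. Intervals on single libraries cover counting error alone, and they may be too narrow even for that, because amplified tags without molecular identifiers are not independent molecules.

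The better measured counterpart of mammalian MYC was mycb. It stood at 2.19 and 24.44 CPM in the M+D+ libraries and at 27.49 and 20.56 CPM in M+D- livers, both transgenic groups. In the wildtype groups it stood at 114.72 and 22.43 CPM in M-D+ livers and at 70.65 and 73.72 CPM in M-D- livers. The lowest library was thus a tumour library and the highest a doxycycline-treated wildtype one, and M+D+ library 2 lay among the libraries of M+D- and just above M-D+ library 2, so the groups overlapped. Both M-D- libraries lay close together, above every transgenic library. For M+D- against M-D- such a separation held for 24.8% of all tested rows, and the share with M+D+ included was not counted.

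Counting error, as far as Poisson intervals on tags cover it, did not span the gaps within M+D+ and within M-D+. The 14 tags of mycb in M+D+ library 1 gave an exact 95% Poisson interval of 1.20 to 3.67 CPM, and the 70 tags in M+D+ library 2 gave 19.1 to 30.9 CPM. The fold between both tumour libraries was 11.2 (95% interval of the ratio 6.24 to 21.5). As a difference of log2(CPM + 1) values it was 2.995, which exceeded that of 98.9% of the tested rows. Between the M-D+ libraries the fold was 5.12 (3.99 to 6.59), and the log2(CPM + 1) difference, 2.30, was larger than in 96.9% of rows. Within the remaining groups mycb varied far less, by 1.34-fold in M+D- livers and 1.04-fold in M-D- livers.

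As group levels, mycb averaged 13.3 ± 15.7 CPM in M+D+ livers, 24.0 ± 4.90 in M+D- livers, 68.6 ± 65.3 in M-D+ livers and 72.2 ± 2.17 in M-D- livers (SD, n = 2 each). No neighbours in this order differed by more than the larger of their SDs. The gap of 44.6 CPM between M+D- and M-D+, for instance, stood against an SD of 65.3 CPM in M-D+, whose library 1 has the fewest tags of all. After TMM scaling mycb read 3.15 and 28.5 CPM in M+D+ livers, 28.8 and 22.7 in M+D- livers, 65.7 and 15.7 in M-D+ livers, and 86.8 and 77.0 in M-D- livers. On that scale M-D+ library 2 lay below 3 of the transgenic libraries.

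**Figure D1:**
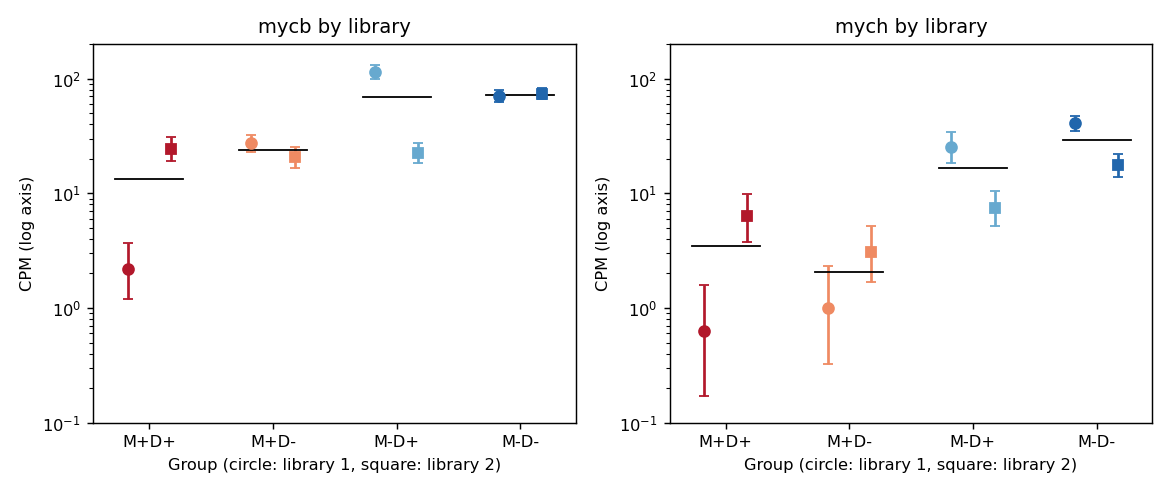
Levels of mycb and mych in CPM (log axis) for each library, by group from M+D+ to M-D-, with vertical bars for the exact 95% Poisson counting interval of a library and horizontal lines for the mean of each group's 2 libraries. The intervals within M+D+ and within M-D+ do not meet for mycb. For both genes every M-D- library lies above every M+D- library, as for 24.8% of all tested rows.

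The other measured member, mych, gave fewer tags than mycb in every library. It had 0.63 CPM (4 tags) and 6.28 CPM (18 tags) in M+D+ livers, and 1.0 CPM (5 tags) and 3.09 CPM (14 tags) in M+D- livers. In wildtype fish it had 25.56 CPM (43 tags) and 7.48 CPM (33 tags) in M-D+ livers, and 40.89 CPM (180 tags) and 17.56 CPM (81 tags) in M-D- livers. All 4 transgenic libraries therefore lay below all 4 wildtype libraries, with 6.28 CPM as the highest of the transgenic and 7.48 CPM as the lowest of the wildtype values. Their counting intervals, 3.72 to 9.93 CPM in M+D+ library 2 and 5.15 to 10.5 CPM in M-D+ library 2, overlapped, so at this depth those neighbouring libraries could not be told apart. Both M+D- libraries and M+D+ library 1 were under 5 CPM, and the gene passed the filter through the other 5 libraries.

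Group means of mych were 3.46 ± 4.0 CPM in M+D+ livers, 2.05 ± 1.48 in M+D- livers, 16.5 ± 12.8 in M-D+ livers and 29.2 ± 16.5 in M-D- livers (SD, n = 2 each). Ordered by level, with M+D- lowest and M-D- highest, the step between M+D+ and M-D+, 13.1 CPM, was the sole one larger than the SDs beside it. Replicates again lay apart, by 10.1-fold in M+D+ (95% interval of the ratio 3.31 to 40.8), 3.11-fold in M+D- livers, 3.42-fold in M-D+ livers and 2.33-fold in M-D- livers. As differences of log2(CPM + 1) values, these gaps were wider than those of 90.9% to 96.7% of tested rows.

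After TMM scaling mych had 0.906 and 7.33 CPM in M+D+ livers, 1.05 and 3.41 in M+D- livers, 14.6 and 5.24 in M-D+ livers, and 50.2 and 18.3 in M-D- livers. On that scale M+D+ library 2 stood above M-D+ library 2, and the transgenic and wildtype libraries overlapped.

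The share of mych among the tags of both genes shows how far they moved together, since each transcript gives about 1 tag whatever its length, although tag recovery can differ between genes. It was 22.2% and 20.5% in M+D+ livers, 3.50% and 13.1% in M+D- livers, 18.2% and 25.0% in M-D+ livers, and 36.7% and 19.2% in M-D- livers. The exact 95% binomial interval of M+D- library 1, 1.14% to 7.97%, lay below those of every wildtype library. In M+D+ the share was within the range of the wildtype livers, and with 18 tags in all in library 1 its interval ran from 6.41% to 47.6%.

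The second counterpart of mammalian MYC, myca, gave a single tag, in M+D+ library 1 (0.16 CPM), and none in the other 7 libraries. Over all 33920162 tags this is 0.0295 CPM, with an exact 95% Poisson interval of 0.000746 to 0.164 CPM. In the 6 control libraries together, 0 of 24656169 tags allowed a level of up to 0.122 CPM. At this depth no difference between groups was detectable for myca, and the upper bound of its rate over all libraries lay below the lowest mych value, 0.63 CPM.

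Other paralogs of the family were also near the floor. The neural gene mycn reached at most 0.60 CPM, mycla 2.27 CPM and myclb 1.78 CPM in any library, and none passed the filter.

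The tumour comparison set M+D+ against the mean of all 3 control groups, with limma on log2(CPM + 1) over all 4577 rows tested. The log2 change of mycb was -2.34 (SE 0.80, 95% interval -4.18 to -0.49), or 5.05-fold lower on that scale, with a Benjamini-Hochberg adjusted p of 0.0671. For mych it was -1.62 (SE 0.68, -3.19 to -0.06) with a limma adjusted p of 0.113. Neither gene passed the threshold of 0.05, which 23.0% of all rows did (20.7% as lower and 2.32% as higher in M+D+), and the median row changed by -0.57. By an exact two-sided permutation test over the 28 ways to choose 2 of 8 libraries, p was 0.107 for mycb and 0.286 for mych, where 0.0357 is the smallest p available. The size of the mycb change rested on M+D+ library 1. Leaving that library out gave -0.84 (limma adjusted p = 0.489), and leaving out M+D+ library 2 gave -3.84 (limma adjusted p = 0.0310). It also passed without M-D+ library 2 (-2.72, limma adjusted p = 0.0324). After TMM scaling the changes were -1.92 for mycb and -1.30 for mych, with neither called and a median row change of -0.12. On the recovered tags the mycb change was smaller, -1.46 by edgeR (adjusted p = 0.302) and -1.36 by DESeq2 (adjusted p = 0.204).

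Among transgenic livers, no difference of either gene with doxycycline was detectable beyond the spread of the libraries. In M+D+ against M+D-, mycb changed by -1.46 (95% interval -3.72 to 0.80, limma adjusted p = 0.429) and mych by 0.27 (-1.65 to 2.19, limma adjusted p = 0.886). Of all rows 2.73% were called there, and after TMM scaling the changes were -1.26 for mycb and 0.41 for mych. The direction of both was set by single libraries, since mycb read 0.04 without M+D+ library 1, and mych read -0.81 when M+D+ library 2 was left out and -0.25 when M+D- library 1 was.

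Among doxycycline-treated fish, both genes were lower in the transgenic livers without passing the test. In M+D+ against M-D+ the change was -2.53 for mycb (SE 0.98, limma adjusted p = 0.0655) and -2.12 for mych (SE 0.83, limma adjusted p = 0.0684). This comparison called 44.2% of all rows, 41.7% as lower, with a median change of -1.04 that shrank to -0.11 after TMM scaling. The libraries of mych did not overlap here, as was so for 65.2% of rows, and those of mycb did. After TMM scaling the changes were -1.59 for mycb and -1.31 for mych (limma adjusted p = 0.269 and 0.316). With edgeR they were -1.43 and -1.38 (edgeR adjusted p = 0.356 and 0.400). The size of both changes depended on single libraries. Without M-D+ library 2 they were -3.68 for mycb and -2.95 for mych, and without M+D+ library 2 they were -4.03 and -3.20. Without M-D+ library 1 they shrank to -1.38 and -1.30, and without M+D+ library 1 to -1.03 and -1.04.

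The largest difference of mych was between undrugged groups, whereas that of mycb was in M+D+ against M-D+. In M+D- against M-D-, mych changed by -3.29 (SE 0.83, 95% interval -5.21 to -1.37), or 9.75-fold lower on the log2(CPM + 1) scale, and mycb by -1.56 (SE 0.98, -3.82 to 0.70). For both genes each M+D- library lay below each M-D- library, which held for 24.8% of all tested rows. After TMM scaling the changes were -3.39 for mych and -1.64 for mycb. The unadjusted limma p of mych was 0.00422, but adjusted over all rows it was 0.487, and that of mycb was 0.623. Limma called 0 of the rows in this comparison, with 419 rows at an unadjusted p under 0.05, edgeR called 0 rows, and DESeq2 called 38 rows (0.830%). One of those 38 was mych, at -3.92 and an adjusted DESeq2 p of 0.0126, whereas edgeR gave -3.90 and an adjusted p of 0.415.

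Doxycycline in wildtype fish was not followed by a detectable change of either gene. In M-D+ against M-D-, mycb changed by -0.49 (95% interval -2.75 to 1.77, limma adjusted p = 0.728) and mych by -0.89 (-2.81 to 1.03, limma adjusted p = 0.445), beside 9.79% of rows called (0.568% as lower) and a median row change of 0.72. After TMM scaling the changes were -1.31 for mycb (limma adjusted p = 0.473) and -1.67 for mych (limma adjusted p = 0.324), with a median row change of -0.04 and 8 rows called in place of 448. The mycb value on the deposited scale became 0.66 without M-D+ library 2. The interaction of genotype and doxycycline, which asks whether the effect of the drug differed between transgenic and wildtype fish, was -0.97 for mycb (SE 1.39, limma adjusted p = 0.605) and 1.16 for mych (SE 1.18, limma adjusted p = 0.463), against 8.24% of rows called. After TMM scaling it was 2.08 for mych (limma adjusted p = 0.438), with 6 rows called in place of 377. For mycb its sign turned after TMM scaling (0.04) and without M+D+ library 1 (0.53) or M-D+ library 1 (0.18).

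**Figure D2:**
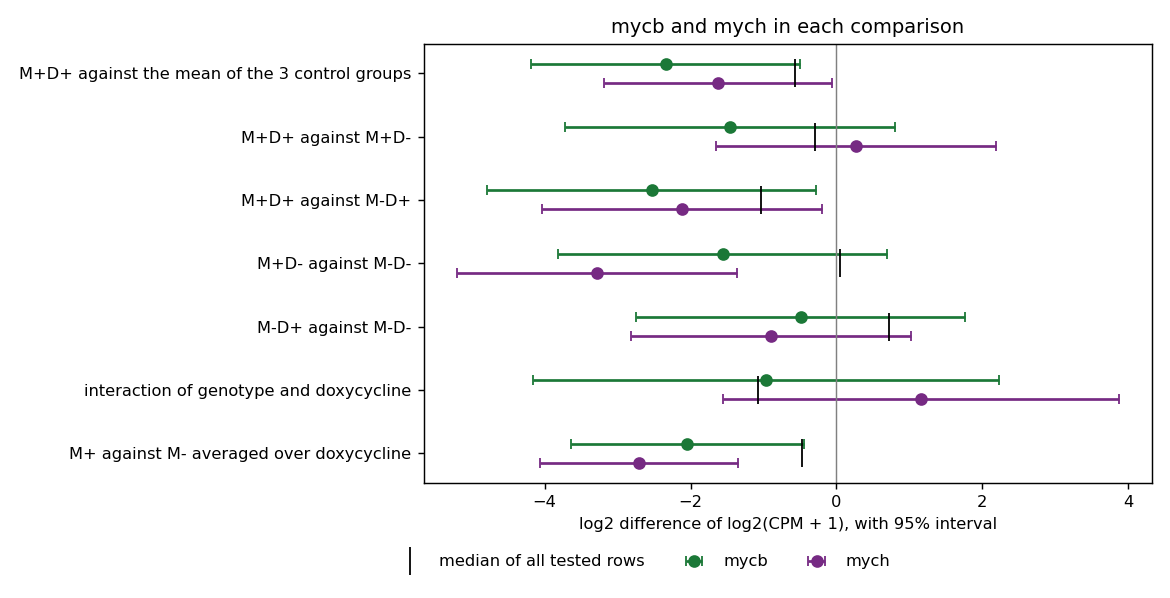
Log2 change of mycb and mych in each comparison (x axis, log2 scale of CPM + 1), as points with 95% intervals from limma, beside the median change of all tested rows. The mych intervals for M+D- against M-D- and for M+ against M- averaged over doxycycline are the ones whose upper bounds lie below -1.

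A further comparison, chosen after the values had been seen, set all 4 transgenic libraries against all 4 wildtype libraries, averaged over doxycycline. There mych fell by 2.70 on the log2 scale (SE 0.59, 95% interval -4.06 to -1.35), 6.52-fold, with a limma adjusted p of 0.0192. For mycb the change was -2.05 (SE 0.69, -3.64 to -0.45, limma adjusted p = 0.0645), and -1.62 after TMM scaling. Limma called 24.0% of rows here, 22.0% as lower, and the median row changed by -0.48. The transgenic range of mych was 0.63 to 6.28 CPM and the wildtype range 7.48 to 40.89 CPM. These ranges did not meet, as was so in this direction for 13.7% of rows. Full separation of 4 from 4 libraries fixes the exact two-sided permutation p over 70 splits at 0.0286, the smallest the splits can give. That p adds nothing to the ranges, which were known when the comparison was chosen. The limma, edgeR and DESeq2 p-values of mych here were also computed with those values known. Every wildtype library reached the 5 CPM of the filter for mych, and of the transgenic ones M+D+ library 2 alone. The call of mych is therefore not separate support for a fall. For mycb the ranges of 2.19 to 27.49 CPM and 22.43 to 114.72 CPM overlapped (exact permutation p = 0.0857).

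That call for mych held after TMM scaling (-2.35, limma adjusted p = 0.0424), although the ranges of 0.906 to 7.33 CPM in transgenic and 5.24 to 50.2 CPM in wildtype libraries then overlapped (8.15% of rows were lower without overlap on that scale). With a pseudocount of 5 in place of 1 the change was -1.75 (limma adjusted p = 0.0188). DESeq2 kept the call (-2.59, adjusted p = 0.00218) and edgeR did not (-2.64, adjusted p = 0.0588). It was also lost without either M+D- library (limma adjusted p = 0.0674 without library 1 and 0.0625 without library 2) and without either M-D- library (0.0649 and 0.0526), at changes of -2.45, -2.96, -2.41 and -3.0. In all of these fits mych stayed lower in the transgenic livers. For the limma fits without TMM scaling this sign was fixed in advance, because the deposited ranges did not meet. Because the samples are bulk tissue, fewer cells of a type that expresses a gene and less RNA of it per cell cannot be told apart.

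**Figure D3:**
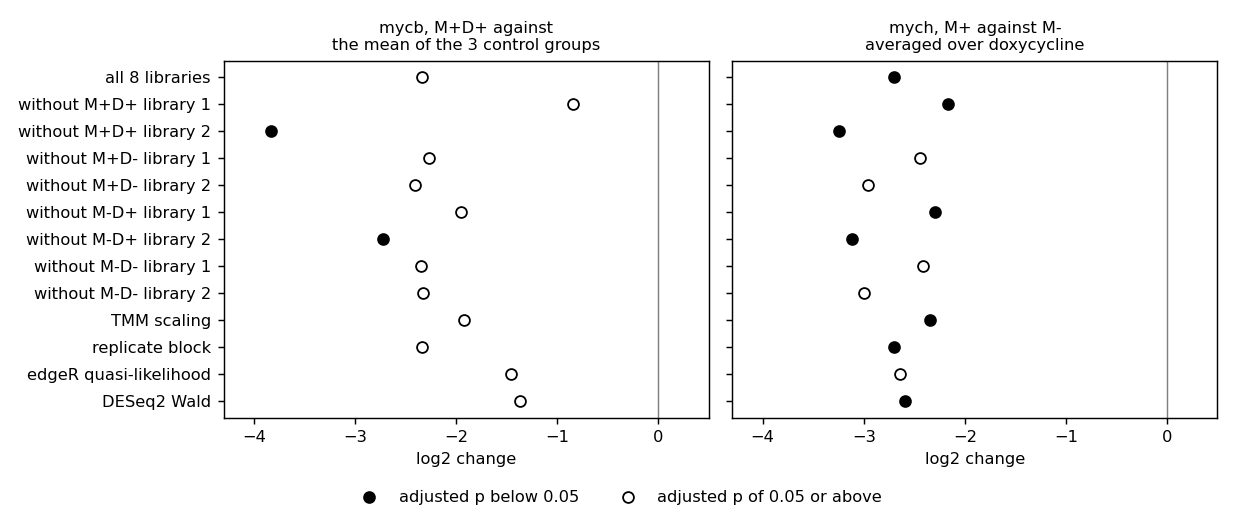
Log2 change of mycb in M+D+ against the control mean (left) and of mych in M+ against M- (right) with all 8 libraries, without each library, and under other scalings and tests, with filled points for an adjusted p below 0.05. All points drawn lie below 0, and they span -3.84 to -0.84 for mycb and -3.24 to -2.16 for mych. For mych in limma without TMM scaling this sign was fixed in advance, because the deposited ranges did not meet.

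Markers of some other cell types that a dissected liver could hold followed these genes in some groups and not in others. Intestinal markers (5 of 6 listed, without cdx1b) summed to 34.5 and 90.8 CPM in M+D+ livers and 6.38 and 10.2 CPM in M+D- livers, against 142.7 and 4.54 CPM in M-D+ livers and 84.3 and 89.8 CPM in M-D- livers. Within M+D+ and within M-D+ the library with more of these tags was also the one with more mycb and mych, and both M+D- libraries had few. The order was the opposite for mycb within M+D- and for mych within M-D-. None of the 4 intestinal rows tested was called in the 4 comparisons in which markers were read. The fatty acid-binding gene fabp1b.1 gave most of the sum in every library except M-D+ library 2.

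Exocrine pancreas markers (12 of 14 listed) summed to 621 and 962 CPM in M+D+ livers, 1075 and 2008 CPM in M+D- livers, 2513 and 1234 CPM in M-D+ livers, and 3618 and 1681 CPM in M-D- livers. In each of the 4 groups the library with more of these tags also had more mych, whereas for mycb this was so in 2 groups, M+D+ and M-D+. That library was also, in each group, the one with the smaller library total. How many of all rows share this order was not counted. Of the 10 rows tested, 3 were called as lower in M+D+ against the control mean, as were 20.7% of all rows. The marker ctrb.1 went the other way without being called (log2 change 1.02). The most abundant marker on the list, prss1 (trypsin), was not among those called (limma adjusted p = 0.0746), and stood at 251.4 and 372.6 CPM in M+D+ livers and 411.1 and 600.5 CPM in M+D- livers, against 882.1 and 478.2 CPM in M-D+ livers and 1460 and 618 CPM in M-D- livers.

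Ovary and egg markers (5 of 6 listed) summed to 0.320 and 5.58 CPM in M+D+ livers and 1.99 and 2.43 CPM in M+D- livers, against 13.7 and 3.62 CPM in M-D+ livers and 9.55 and 36.6 CPM in M-D- livers. The row tested, zp3b (an egg coat glycoprotein), had 0.16 to 2.79 CPM in transgenic and 2.94 to 26.02 CPM in wildtype libraries. Such ranges did not meet in this direction for 13.7% of rows. The 2.79 CPM were in M+D+ library 2 (TMM factor 0.857) and the 2.94 CPM in M-D+ library 2 (1.43). After TMM scaling the order of these libraries turns, and the zp3b ranges overlap. The row of zp3b passed the filter through wildtype libraries alone. Its change of -1.98 on the log2 scale in M+ against M- is therefore given as a value and not as a test. The oocyte growth factors gdf9 and bmp15 were at 0 in all transgenic libraries and in both M-D+ libraries, and at 0.87 CPM or less in M-D- livers. The list members zar1 and zp2.1 overlapped between genotypes. In M+D+ library 2 zar1 had 2.09 CPM, against 0 in M-D+ library 2, and zp2.1 had 0.70 CPM, against 0.23 in M-D- library 1. Within M+D+ and within M-D+ the library with the larger sum also had more mycb and mych. For mycb within M+D- and for mych within M-D- the order was the opposite. The part of these 3 marker groups in the mycb and mych differences was not tested.

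**Figure D4:**
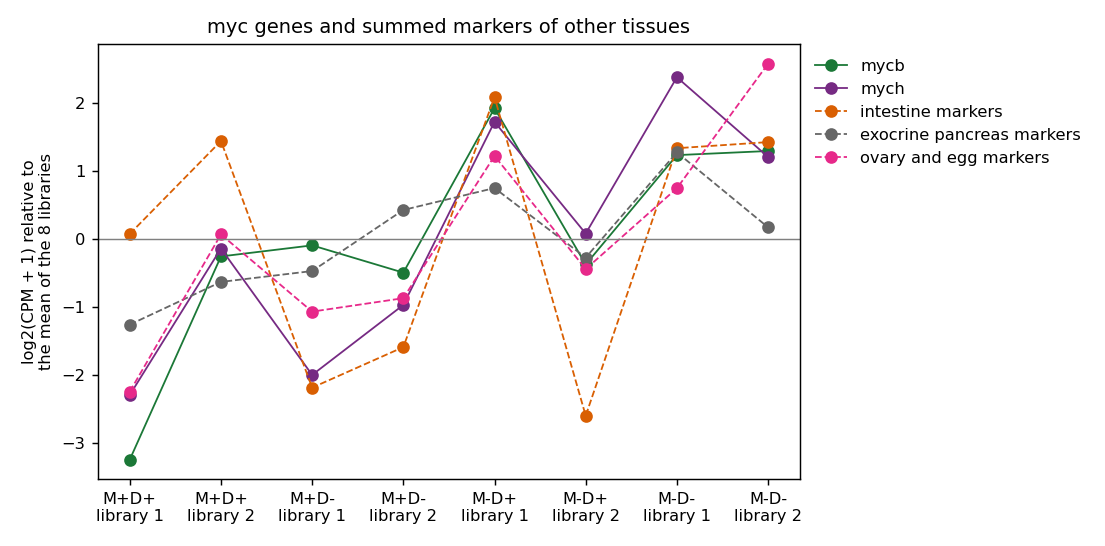
Levels of mycb, mych and the summed intestine, exocrine pancreas, and ovary and egg markers in each library (x axis), as log2(CPM + 1) relative to the mean of each over the 8 libraries (y axis), with lines that only join points of 1 gene or marker sum. The lowest ovary and egg sum, 0.320 CPM, is in M+D+ library 1, where mycb and mych are also lowest.

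The rows whose pattern over the 8 libraries was most like that of each gene were named by the root mean square (RMS) difference of log2(CPM + 1) values, each centred on its own mean, among rows with a symbol and a mean of at least 20 CPM. For mycb the closest of 1545 rows were ndufs8a, a subunit of mitochondrial complex I (0.545), bcat1, a branched-chain amino acid aminotransferase (0.706), fth1a, the ferritin heavy chain (0.714), slc31a1, a copper transporter (0.723), and cpb1, a pancreatic carboxypeptidase (0.743). The median row differed by 1.40. As an example, ndufs8a had 0.78 and 10.82 CPM in M+D+ livers, 22.11 and 27.19 in M+D- livers, 64.2 and 21.52 in M-D+ livers, and 34.3 and 29.49 in M-D- livers.

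For mych the closest of 1546 rows were gltpd2a (0.696), tgfbi, an extracellular matrix protein (0.711), ccdc6b (0.801), acsl5, an acyl-CoA synthetase (0.861), and bcat1 (0.875), against a median of 1.57. The matrix gene tgfbi had 6.09 and 40.5 CPM in M+D+ livers, 19.72 and 15.69 in M+D- livers, 82.62 and 13.14 in M-D+ livers, and 239.2 and 92.15 in M-D- livers. Each myc gene resembled the other at an RMS difference of 0.892, which put mycb at rank 6 for mych and mych at rank 25 for mycb.

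Genes around Myc were then read from 8 lists taken mainly from mammalian work. The partner max, without which MYC does not bind DNA, was the sole tested row of the 7 listed among 13 genes of the MAX network. It stood at 41.25 and 34.22 CPM in M+D+ livers, 32.07 and 28.73 in M+D- livers, 70.73 and 47.12 in M-D+ livers, and 39.3 and 36.86 in M-D- livers. Its change in M+D+ against the control mean was -0.11 (SE 0.25, limma adjusted p = 0.761), with a sign that turned after TMM scaling (0.38). In all libraries max was thus detected, at 28.73 to 70.73 CPM, whereas mycb and mych were under 5 CPM in 1 and 3 libraries.

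Over the 99 tested rows of all lists, 5 rose and 18 fell in M+D+ against the control mean, which is 23.2% beside the 23.0% of all rows called. After TMM scaling 8 rose and 7 fell, 15.2% beside 10.8% of all rows. Without M+D+ library 1, where mycb was lowest, 0 rose and 1 fell of 98 rows by limma, without M+D+ library 2, 2 rose and 10 fell of 97, and with the M-D+ group dropped from the control mean 3 rose and 6 fell. The rows called over the whole table changed too, to 64 without M+D+ library 1, 519 without M+D+ library 2 and 377 with the M-D+ group dropped, in place of 1052.

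In the lists of genes that act on MYC itself the called rows were lower in M+D+, as were 946 of the 1052 rows called over the whole table. Those 946 rows are 20.7% of all rows tested. Among regulators of the MYC gene and its mRNA, 0 of 16 tested rows rose and 4 fell (median log2 change -0.28, against -0.57 over all rows), and 0 rose and 2 fell after TMM scaling (median 0.20). They included elavl1a, an RNA-binding protein that binds AU-rich mRNAs (-2.1, limma adjusted p = 0.00733), brd2a, a bromodomain reader of acetylated histones (-2.07, 0.00858), and khsrp, an RNA decay factor (-1.46, 0.0173). The levels of elavl1a were 1.25 and 1.75 CPM in M+D+ livers, 3.78 and 2.21 in M+D- livers, 25.56 and 28.77 in M-D+ livers, and 10.22 and 9.76 in M-D- livers. It passed the filter through wildtype libraries alone, so its call is not separate support for a fall.

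Of the protein turnover list, 0 of 10 rows rose and 2 fell (median -0.61): ppp2r1bb, a scaffold subunit of the phosphatase PP2A (-1.60, limma adjusted p = 0.0103), and uba1, the ubiquitin-activating enzyme (-1.02, 0.0267). The levels of uba1 were 36.72 and 39.45 CPM in M+D+ livers and 51.98 and 44.43 in M+D- livers. In wildtype fish they were 221.1 and 141.1 CPM in M-D+ livers and 52.02 and 61.58 in M-D- livers. None of 7 cofactors was called (median -0.37), and the smallest p belonged to cdk9, the kinase of P-TEFb (-0.75, limma adjusted p = 0.0619), and wdr5, a chromatin adaptor (-0.60, 0.114). Immediate early genes, which respond to growth signals as MYC does, had 0 of 21 rows risen and 2 fallen (median -0.20), gadd45ba (-1.50, limma adjusted p = 0.0247) and klf2a (-0.87, 0.0379). Over all rows, 20.7% were called as lower and 2.32% as higher in this comparison. Which rows of the immediate early list were called depended on the scaling. After TMM scaling 2 rows rose and 0 fell (median 0.23), and by edgeR 4 rose and 0 fell. Both gadd45ba (-1.02) and klf2a (-0.43) stayed lower after TMM scaling, without being called.

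Targets known from mammals were called in both directions. So were rows of the whole table, 20.7% as lower and 2.32% as higher, or 10.8% in either direction after TMM scaling. Of 33 tested rows of targets that MYC activates, 2 rose and 7 fell (median -0.60), whereas 3 rose and 2 fell after TMM scaling (median -0.10) and by edgeR. The glycolytic enzyme eno1a (1.88, limma adjusted p = 0.0358) and the nucleolar helicase ddx21 (1.36, 0.0381) rose. The levels of eno1a were 7.03 and 10.82 CPM in M+D+ livers and 0 to 3.17 CPM in the 6 control libraries. It passed the filter through M+D+ alone, so its call is not separate support for a rise. Nucleolin, ncl (-1.88, 0.00819), the translation initiation helicase eif4a1a (-1.58, 0.00964) and the arginine methyltransferase prmt1 (-1.33, 0.0128) fell. The levels of eif4a1a were close in both transgenic groups, 10.16 and 10.47 CPM in M+D+ livers and 12.15 and 11.49 in M+D- livers. In wildtype fish they were 129.6 and 75.66 CPM in M-D+ livers and 28.62 and 30.14 in M-D- livers. The helicase ddx21 had 375.6 and 517.1 CPM in M+D+ livers, against 67.96 to 253.5 CPM in the 6 control libraries.

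Of 11 tested rows of targets that MYC represses, 3 rose and 3 fell (median -0.07), and 3 rose and 2 fell after TMM scaling. Over all rows 2.32% rose and 20.7% fell, and 10.8% were called after TMM scaling. No list was tested as a set. Risen members included sesn1, a stress-induced sestrin (2.1, limma adjusted p = 0.00954), and tob1b, an antiproliferative protein (0.91, 0.0340). Those that fell were ndrg2 (-2.39, 0.00386), fth1a (-2.28, 0.0206) and foxo3b, a forkhead transcription factor (-1.21, 0.0426). The last of these passed the filter through M+D- and M-D+ libraries alone, so its call is not separate support for a fall. The levels of ndrg2 were 10.78 and 14.32 CPM in M+D+ livers, against 54.68 to 88.03 CPM in the 6 controls. Among all network genes named here for this comparison, ndrg2 alone was called without each library in turn (limma adjusted p = 0.00368 to 0.0325). After TMM scaling uba1, khsrp, gadd45ba, klf2a, prmt1 and foxo3b were no longer called (limma adjusted p = 0.0577 to 0.269).

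**Figure D5:**
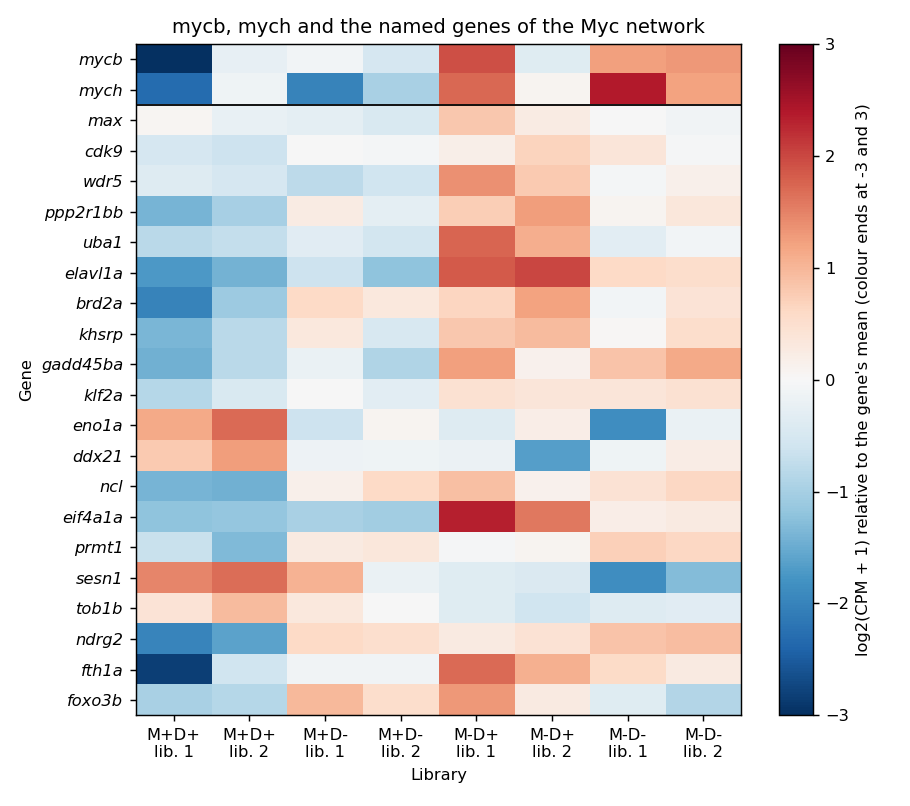
Heat map of mycb, mych (top) and the network genes given for M+D+ against the control mean (rows) in each library (columns), coloured by log2(CPM + 1) relative to the mean of each gene, red above and blue below it, with colours ending at -3 and 3. The M+D+ columns are blue for ndrg2, elavl1a and brd2a and red for sesn1 and eno1a, and mycb is deep blue in M+D+ library 1 alone.

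The share of network rows called was 4.04% in M+D+ against M+D- (2.73% of all rows), 47.5% in M+D+ against M-D+ (44.2%), 13.1% in M-D+ against M-D- (9.79%) and 10.1% for the interaction (8.24%). In M+D+ against M+D-, 1 row rose and 3 fell, with ndrg2 (-2.35, limma adjusted p = 0.0166) and ncl (-1.78, 0.0375) having the smallest p of those that fell. In M+D+ against M-D+, 5 rose and 42 fell (16 and 11 after TMM scaling, which called 14.9% of all rows), with sesn1 (1.98, limma adjusted p = 0.00987) up and elavl1a (-3.50, 0.00283) and eif4a1a (-3.14, 0.00283) down. Of these, elavl1a passed the filter through wildtype libraries alone.

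In M+D- against M-D-, where the mych difference was largest, limma and edgeR called 0 of the 99 rows. DESeq2 called 3 of them (3.03%, beside 0.830% of all rows). In M-D+ against M-D-, 13 rose and 0 fell, led by the pyruvate kinase gene pkma (2.38, limma adjusted p = 0.0371) and the stress-induced factor atf3 (2.33, 0.0371), and 0 were called after TMM scaling. The interaction had 0 higher and 10 lower rows, led by foxo3b (-3.06, 0.0428) and brd2a (-2.76, 0.0428), and again 0 after TMM scaling. Of these, foxo3b passed the filter through M+D- and M-D+ libraries alone.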

How the data were processed

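The authors deposited CPM values for each library (a GI number, a RefSeq accession and the value), and the aligner, build and rule for assigning tags were not given in the sources used here. A row not listed in a file was taken as 0 tags. The deposited CPM were whole multiples of 1 step per library, and 100% of values came out as whole tags within 0.1. Rows were named by RefSeq accession from a gene table of GRCz12tu, which served for symbols alone (10410 of 15600 rows), and no coordinates or sequences are given. A tag may be shared by transcripts that are almost the same at the 3' end, so values of close paralogs are uncertain in that respect.

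Tests used limma 3.58.1 (R 4.3.3) with an intensity trend on log2(CPM + 1), unscaled, in 1 fit of 4 group means, two-sided, adjusted over 4577 rows with at least 5 CPM in at least 2 libraries. The log scale understates the change of low rows. Alternatives were TMM scaling, other filters (none, 10 CPM) and pseudocounts (0.5, 5), robust variance, a replicate block, each library left out, and edgeR 4.0.16 and DESeq2 1.42.0 on the recovered tags. The members, lists and comparisons were chosen with earlier results of these data known.

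The genes named were the 3 members, per list up to 3 risen and 3 fallen members with the smallest p in M+D+ against the control mean (or the 2 with the smallest p as values), up to 2 risen and 2 fallen in each other comparison, and the 5 rows most like each of mycb and mych. The values of 1 gene taken by this rule are not reported here, and it stays in every count. The comparison of M+ against M- was added after seeing the data. Markers of erythrocytes, leukocytes, endothelium, bile duct, and skin and muscle summed to 139.4 to 445.5, 199 to 743, 0.460 to 2.97, 1346 to 5120 and 122.9 to 444.4 CPM over the 8 libraries. A simulation with known changes was used to check the fitting step.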

Additional observations from a re-analysis of the deposited data

How the results depend on the processing

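Replicate numbers showed no positive pairing of the samples: correlations of same-numbered deviations over the 6 pairs of groups ran from -0.333 to 0.0447. The value of -0.333 was between M-D+ and M+D+, whose same-numbered libraries thus tended to deviate in opposite directions. The fit with a replicate block changed no call of mycb or mych. Its limma adjusted p was 0.0976 for mycb in M+D+ against the control mean and 0.0362 for mych in M+ against M-, and it called 0 rows in M-D+ against M-D- where the fit without it called 448.

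Leaving out each library gave mycb changes of -3.84 to -0.84 (M+D+ against the control mean), -2.96 to 0.038 (M+D+ against M+D-), -4.03 to -1.03 (M+D+ against M-D+), -1.76 to -1.36 (M+D- against M-D-), -1.64 to 0.66 (M-D+ against M-D-), -2.47 to 0.53 (interaction) and -2.80 to -1.30 (M+ against M-). For mych, in the same order, they were -2.70 to -0.54, -0.81 to 1.35, -3.20 to -1.04, -3.87 to -2.70, -1.72 to -0.07, 0.08 to 2.24 and -3.24 to -2.16. The mycb change in M+ against M- passed without M-D+ library 2 (-2.62, limma adjusted p = 0.0313) and without M+D+ library 2 (-2.80, 0.0217). The mycb interaction turned positive after TMM scaling (0.043), by edgeR (0.21) and by DESeq2 (0.30). For mych, DESeq2 called M+D- against M-D- (-3.92), and edgeR did not call M+ against M- (-2.64). With a pseudocount of 5 the mych changes shrank to -2.21 in M+D- against M-D- and -1.75 in M+ against M-. The max change turned positive after TMM scaling (0.38), by edgeR (0.46), by DESeq2 (0.50), with M-D+ left out of the controls (0.14), and it ran from -0.24 to 0.023 over the fits without 1 library. The cause of these shifts was not tested.

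Over all settings the rows called ranged from 64 to 1294 in M+D+ against the control mean (1052 as reported), 0 to 293 against M+D- (125), 601 to 2088 against M-D+ (2023), 0 to 38 in M+D- against M-D- (0), 0 to 692 in M-D+ against M-D- (448), 0 to 546 for the interaction (377) and 55 to 1185 in M+ against M- (1100). With 4 to 43 tags in 6 of 8 libraries for mych, and 1 for myca in all, depth limits both genes.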

Other observations

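In M+ against M-, the comparison added after seeing the data, 31 of the 99 tested Myc network rows fell and 3 rose by limma. This was 34.3% in all beside 24.0% of all rows. After TMM scaling 7 fell and 6 rose, 13.1% in all, and 422 of all 4577 rows were called. Activated targets held 13 of the 31 (of 33 tested) and immediate early genes 6 (of 21). Regulators of the MYC gene and its mRNA held 5 (of 16). Of all rows, limma called 22.0% as lower without TMM scaling. After it, 4 activated targets, 2 immediate early genes and 1 regulator fell. Whether fallen rows were more common in any list than among all rows was not tested. By the same measure of likeness over the 8 libraries, the summed ovary and egg markers differed from mycb by an RMS of 0.758 and from mych by 0.867, and the exocrine pancreas markers by 0.985 and 1.06. The hepatocyte sum, mostly fabp10a, differed by 1.73 and 1.80, and the intestinal sum by 1.75 and 1.46. Erythrocyte markers differed by 1.41 and 1.69, endothelium by 1.43 and 1.72, and leukocyte markers by 1.67 and 1.78. Bile duct markers differed by 1.68 and 1.81, and skin and muscle markers by 1.87 and 2.03. The median of the rows compared differed by 1.40 from mycb and 1.57 from mych.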
